A study of Sus scrofa with 4 samples.

Results

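The genes described here are 10 genes of DNA replication and the S phase, MCM4, GINS2, GMNN, POLD2, HELLS, ATAD2, CDK6, CKS2, CDKN3 and CENPA, measured in monolayers of porcine granulosa cells (GCs). They were chosen by name from a listing made with earlier results of these same arrays known, so their NEFA to control differences are a description and carry no test. All 10 were found, with 18 probes, among the 9962 genes that had a named probe with a value on all 4 arrays. The brightest probe stood for each gene.

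Before S phase, the MCM helicase is loaded onto replication origins, and the licensing inhibitor geminin prevents the loading from being repeated after replication has begun. The GINS complex joins the helicase when an origin fires, and the delta and epsilon DNA polymerases then copy the strands. Cyclin-dependent kinases, with their small CKS subunits and their inhibitors, time these steps, and most of the genes involved are under the control of E2F transcription factors. GCs divide rapidly in growing follicles, and they leave the cell cycle as they luteinize after the ovulatory surge.

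In the NEFA group, GC monolayers were cocultured with cumulus-oocyte complexes (COCs) during in vitro maturation (IVM) in medium with a high level of non-esterified fatty acids (palmitic, stearic and oleic acid). In the control group they were cocultured in medium with the same amounts of albumin and ethanol and no fatty acid. Both groups had grown as adherent cells in serum, and both received EGF, FSH, LH and dibutyryl-cAMP in the first part of IVM and EGF and follicular fluid throughout. The ovaries came from a slaughterhouse, the COCs came from other ovaries than the GCs, and the pooled wells of 1 plate made 1 replicate. There were 4 biological replicates, collected on different days, which are numbered 1 to 4 and lie on arrays A to D in that order. On each array the NEFA sample and the control sample of a replicate were hybridized together in different dyes.

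The labels contradict each other on the dyes. By the channel fields the NEFA RNA was in Cy3 (green) on arrays A and B and in Cy5 (red) on C and D, and the titles say the opposite on all 4 arrays. Ratios below follow the channel fields and have NEFA on top. The titles would turn every sign, so the direction is not settled. Array A also stood apart in its local background and control spots. Its ratio of NEFA to control ran against that of array B, which is labelled alike (Pearson r = -0.74 across 43467 probes, which are not independent replicates), whereas arrays C and D had r = 0.47. Array A had a median local background of 117 in its green and 63.1 in its red column, against 60.9 to 75.0 in green and 116 to 173 in red on the other arrays. Its red to green ratio over 61 kinds of control spots correlated at r = -0.99 with the mean of the other arrays, while B, C and D had r = 0.96 to 0.99 among themselves. An exchange of its columns would place these values beside those of the other arrays, and no label states one. The values of the 10 genes are therefore given with the columns as headed, without array A, and with the channels of array A exchanged. As headed, the ratios of array A had r = 0.32 with C and 0.30 with D, and those of B had -0.41 and -0.33. The exchange itself turns the values of A to -0.32 and -0.30. Arrays of opposite dye orientation then had r = -0.41 to -0.30, so a fit with a dye term is also given.

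Between 25.5% and 39.0% of probes were above background in a channel, which means brighter than the 153 negative control spots of the same array and dye by 2 SD over their mean. Of the 10 genes, 5 (MCM4, GMNN, HELLS, CKS2 and CDKN3) were above background in all 8 channels. GINS2, POLD2, ATAD2 and CDK6 were above in 7 of 8, and CENPA in 4 of 8. The levels given are normalized log2 intensities, which depend on the probe and are not compared between genes. With 4 arrays the precision is limited, and the levels of NEFA and control GCs, taken across arrays, overlapped for all 10 genes. As NEFA and control were paired on each array, nothing is read from this overlap.

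The criterion of the study was an unadjusted p under 0.05 together with a change of 1.2-fold, here from limma, whose moderated standard errors are given. Among those of the 10 genes that met it under some reading of array A, the chromatin remodeler gene HELLS had the most even ratios on arrays B, C and D. HELLS encodes a SNF2-family helicase that is needed for DNA methylation at repeats and is transcribed in dividing cells. Its level (probe EMPV1_01220) on arrays A, B, C and D was 8.79, 8.76, 8.62 and 8.92 in NEFA GCs, against 8.76, 9.09, 9.05 and 9.40 in control GCs. The log2 ratios were 0.030, -0.33, -0.43 and -0.48, so NEFA GCs were lower on 3 arrays and array A showed almost no difference. The mean was -0.30 as headed (standard error 0.11, n = 4), which is 1.23-fold lower. It was -0.41 without array A (standard error 0.10, n = 3) and -0.32 with array A exchanged (standard error 0.10, n = 4). As the measure is of bulk RNA, fewer cells of a kind and less RNA per cell cannot be told apart, here and below.

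ATAD2 encodes a bromodomain ATPase of replicated chromatin that acts with E2F and MYC in human cells. Its level (EMPV1_17257) was 8.36, 8.54, 8.09 and 8.71 in NEFA GCs on arrays A to D, against 8.46, 9.37, 8.79 and 8.76 in control GCs. The ratios were -0.10, -0.83, -0.70 and -0.053. The difference was thus large on B and C and small on A and D, and the ratio of D stood at percentile 47.5 of all genes. The mean was -0.42 as headed (standard error 0.16), -0.53 without array A (standard error 0.17) and -0.37 with array A exchanged (standard error 0.18). The criterion was met by the first and second of these values and missed by the third.

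CKS2 and CDKN3 behaved alike across the arrays. CKS2 is a small subunit of cyclin-dependent kinases. Its probe (EMPV1_27781) was the brightest of the 10, with 9.65, 11.11, 10.78 and 11.13 in NEFA GCs and 9.35, 11.38, 11.80 and 11.43 in control GCs. On array A both groups were below every other array. The ratios were 0.29, -0.27, -1.02 and -0.29, and the value of array C stood at percentile 0.211 of all genes on that array. The mean was -0.32 as headed (standard error 0.20), -0.53 without array A (standard error 0.18) and -0.47 with array A exchanged (standard error 0.15).

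CDKN3 encodes a phosphatase that removes the activating phosphate of cyclin-dependent kinases. Its level (EMPV1_18070) was 9.71, 9.46, 8.88 and 8.66 in NEFA GCs, against 9.28, 9.77, 9.75 and 8.98 in control GCs. The ratios were 0.43, -0.31, -0.87 and -0.32, with array A again on the other side of 0 as headed. The mean was -0.27 as headed (standard error 0.20), -0.50 without array A (standard error 0.15) and -0.48 with array A exchanged (standard error 0.12). Array C carried much of both means. Without it, as headed, CKS2 had -0.090 and CDKN3 -0.069, and with array A exchanged they had -0.28 and -0.35. For CKS2 and CDKN3 the criterion was missed as headed and met under both other readings.

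CDK6, the kinase that pairs with D-type cyclins in G1, had a dimmer probe (EMPV1_28698). Its level was 8.34, 8.56, 8.18 and 8.59 in NEFA GCs, against 8.57, 8.56, 8.57 and 8.89 in control GCs. The ratios were -0.23, -0.0034, -0.39 and -0.30, lower on 3 arrays with no difference on B. The mean was -0.23 as headed (standard error 0.092) and without array A (standard error 0.12), which is under 1.2-fold, and -0.12 with array A exchanged (standard error 0.12).

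**Figure D1:**
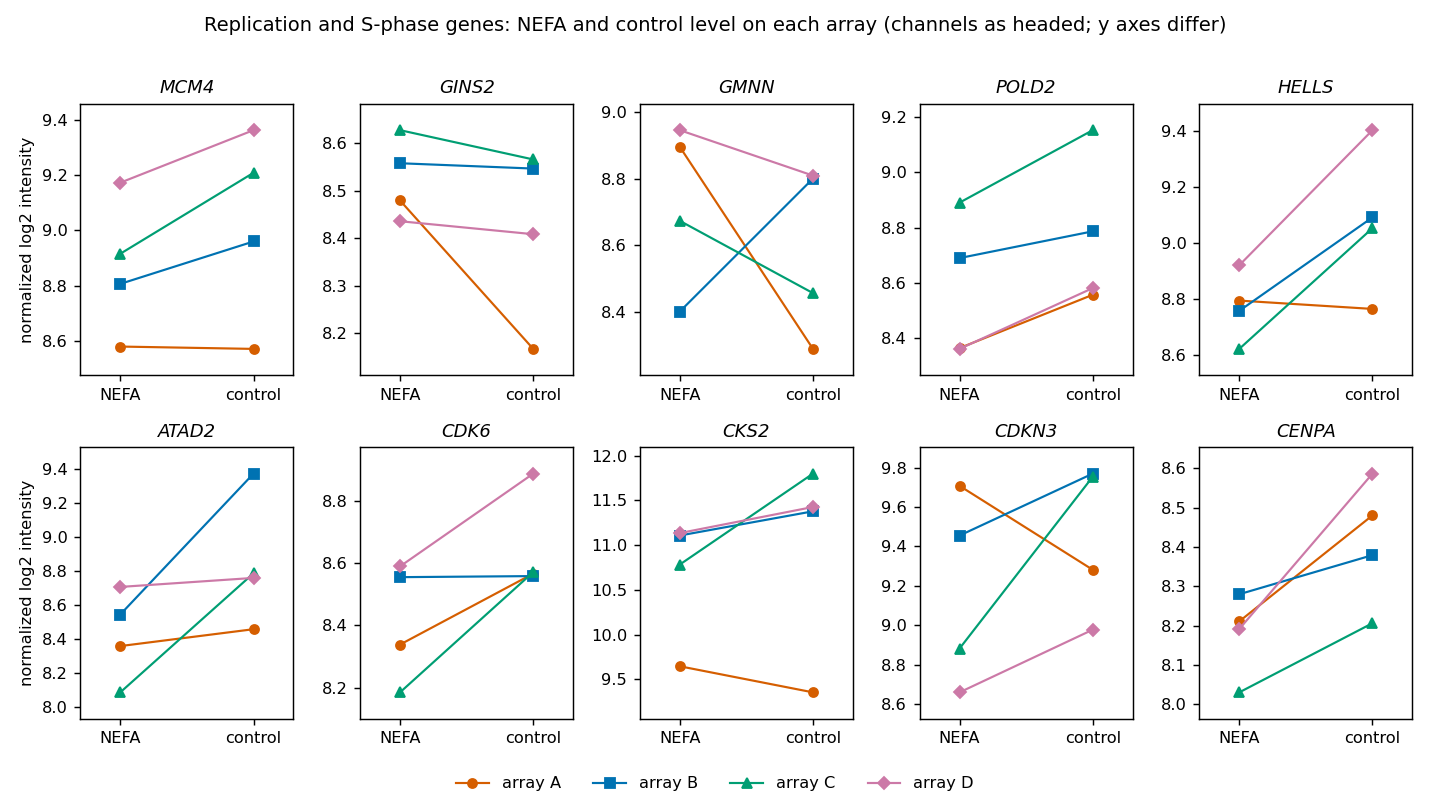
Normalized log2 intensity of each of the 10 genes in NEFA GCs (left) and control GCs (right) of the same array, channels as headed, with 1 line per array and a y axis of its own for each gene. A line that climbs to the right means a lower level in NEFA GCs. HELLS climbs on arrays B, C and D, GMNN crosses, and CKS2 on array A lies below the other 3 arrays in both groups.

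Of the helicase and licensing genes, MCM4 encodes a subunit of the MCM2-7 helicase. Its level (EMPV1_24172) was 8.58, 8.81, 8.92 and 9.17 in NEFA GCs, against 8.57, 8.96, 9.21 and 9.36 in control GCs. The ratios were 0.0085, -0.15, -0.29 and -0.19, so the spread between arrays in either group was larger than any difference within an array. The mean was -0.16 as headed (standard error 0.085), -0.21 without array A (standard error 0.10) and -0.16 with array A exchanged (standard error 0.082). No reading brought it to 1.2-fold.

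GINS2 encodes a subunit of the GINS complex. Its level (EMPV1_25969) was 8.48, 8.56, 8.63 and 8.44 in NEFA GCs, against 8.17, 8.55, 8.57 and 8.41 in control GCs. The ratios were 0.31, 0.011, 0.062 and 0.027, and array A alone carried a difference. The mean was 0.10 as headed (standard error 0.088), 0.033 without array A (standard error 0.097) and -0.053 with array A exchanged (standard error 0.094), so the sign of this probe depended on how array A was read.

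GMNN encodes geminin, which blocks the loading of the MCM helicase. It had the largest spread of ratios among the helicase and licensing genes. Its level (EMPV1_31757) was 8.90, 8.40, 8.67 and 8.95 in NEFA GCs, against 8.29, 8.80, 8.46 and 8.81 in control GCs. The ratios were 0.61, -0.40, 0.22 and 0.14. The mean was 0.14 as headed (standard error 0.16), -0.015 without array A (standard error 0.15) and -0.16 with array A exchanged (standard error 0.16). After the exchange, red exceeded green by 0.34 on average, so the dye difference was about as large as the ratios of single arrays, and its part in them was not tested.

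POLD2 encodes an accessory subunit of DNA polymerase delta, which copies the lagging strand. Its level (EMPV1_36973) was 8.36, 8.69, 8.89 and 8.36 in NEFA GCs, against 8.56, 8.79, 9.15 and 8.58 in control GCs. The ratios were -0.19, -0.097, -0.26 and -0.22, below 0 on all 4 arrays as headed and the most even of the 10 genes. Exchanged, array A had 0.19, so the 4 ratios were even only as headed. The mean was -0.19 as headed (standard error 0.077) and without array A (standard error 0.10), and -0.096 with array A exchanged (standard error 0.10).

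CENPA, the histone H3 variant of centromeres, was the dimmest of the 10 (EMPV1_10172). It was above background in 1 of 4 NEFA channels and in 3 of 4 control channels, so its ratios were read close to background. Its level was 8.21, 8.28, 8.03 and 8.19 in NEFA GCs, against 8.48, 8.38, 8.21 and 8.59 in control GCs. The ratios were -0.27, -0.099, -0.18 and -0.40, with a mean of -0.24 as headed (standard error 0.085), -0.22 without array A (standard error 0.11) and -0.10 with array A exchanged (standard error 0.12).

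**Figure D2:**
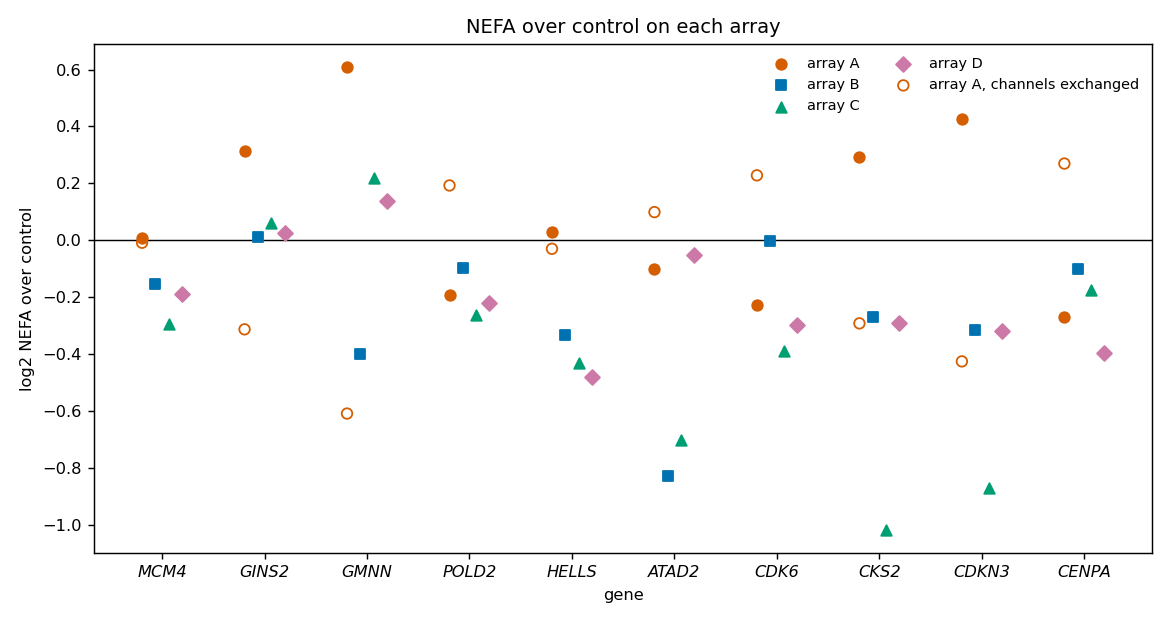
Log2 ratio of NEFA to control for each gene on each array, with array A as headed (filled circle) and exchanged (open circle). On arrays B, C and D, 8 of the 10 genes lie below 0 throughout, and array A as headed lies above 0 for 6 genes, among them GMNN, CDKN3, GINS2 and CKS2.

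Considered by array, 4 of the 10 ratios were below 0 on array A, 9 on B, 8 on C and 8 on D. Over all genes, 50.9%, 48.0%, 60.1% and 57.5% were below 0 on these arrays. The medians were 0.019 on A, -0.21 on B, -0.34 on C and -0.26 on D, beside medians over all genes of -0.0058, 0.011, -0.057 and -0.039. On array A exchanged, 6 ratios were below 0, beside 49.0% of all genes, and the median was -0.019. Single genes on array A ran from -0.27 (CENPA) to 0.61 (GMNN) as headed, so its median stands for values on both sides of 0. All of arrays B, C and D were below 0 for 8 genes, the exceptions being GINS2 and GMNN. With array A included, 4 genes were below 0 on all 4 arrays as headed (POLD2, ATAD2, CDK6 and CENPA) and 4 others with array A exchanged (MCM4, HELLS, CKS2 and CDKN3).

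As headed, 2 of the 10 genes met the criterion as lower in NEFA GCs (HELLS and ATAD2) and 0 as higher, while 0.522% of all genes were called lower and 0.281% higher. A further 3 (POLD2, CDK6 and CENPA) had an unadjusted p under 0.05 in limma with a change under 1.2-fold. These calls moved with single arrays. Without replicate 2 they were CDK6 and CENPA as lower and GMNN as higher, with 7.44% of all genes called lower and 7.3% higher. This fit holds arrays A, C and D. Should array A have its dyes swapped, its ratio as headed would be red over green, as on C and D. NEFA and dye could then not be told apart in this fit, and the part of dye in its calls was not tested. Without replicate 3 none of the 10 was called, with 0.141% and 0.13% of all genes. Without replicate 4 ATAD2 was called lower, with 0.171% and 0.13%. Without array A, 4 met it as lower (HELLS, ATAD2, CKS2 and CDKN3) and 0 as higher, against 2.39% and 0.733% of all genes. With array A exchanged, 3 met it as lower (HELLS, CKS2 and CDKN3) and 0 as higher, against 3.08% and 1.08% of all genes. With the dye term added, 4 met it as lower (HELLS, ATAD2, CKS2 and CDKN3) and 0 as higher, against 3.71% and 3% of all genes. As the genes were listed with this contrast in view, nothing is read from these counts. By the titles, the same genes would be called higher.

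The number of genes with a ratio below 0 was 8 as headed, 9 without array A and 10 with array A exchanged, and 58.1%, 56.1% and 54.0% of all genes were below 0 in the same 3 fits. The median over the 10 was -0.23, -0.23 and -0.16, and the median over all genes was -0.022, -0.019 and -0.010. None of the 10 had an adjusted p under 0.05 in these fits or with the dye term (limma, Benjamini-Hochberg over all 43794 probes), and 5, 4, 3 and 4 had an unadjusted p under 0.05 as headed, without array A, exchanged, and exchanged with the dye term. Of all 9962 genes, 142, 324, 584 and 1422 had an unadjusted p under 0.05 (limma) in the same order. Over the whole array 0, 1, 2 and 558 probes had an adjusted p under 0.05 in those 4 fits. After the exchange the mean red to green difference of all 10 genes had the sign of the ratio as headed. These quantities differ only in the sign given to array B, so the match is largely fixed by construction and nothing is read from it. The red to green difference was below 0 for 8 genes and ranged from -0.0059 for ATAD2 to -0.23 for CDK6 among them. It was larger in size than the mean ratio with array A exchanged for GINS2, GMNN, POLD2, CDK6 and CENPA. Those genes had red to green differences of 0.098, 0.34, -0.14, -0.23 and -0.19, against means of -0.053, -0.16, -0.096, -0.12 and -0.10. For the rest of the 10 the red to green difference was smaller than the mean. A dye term takes this difference out of the residual spread. As the dye orientations have equal numbers of arrays, each mean stays the same by construction and only its standard error changes. HELLS then had -0.32 (standard error 0.077), CKS2 -0.47 (standard error 0.11), CDKN3 -0.48 (standard error 0.097) and ATAD2 -0.37 (standard error 0.16).

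**Figure D3:**
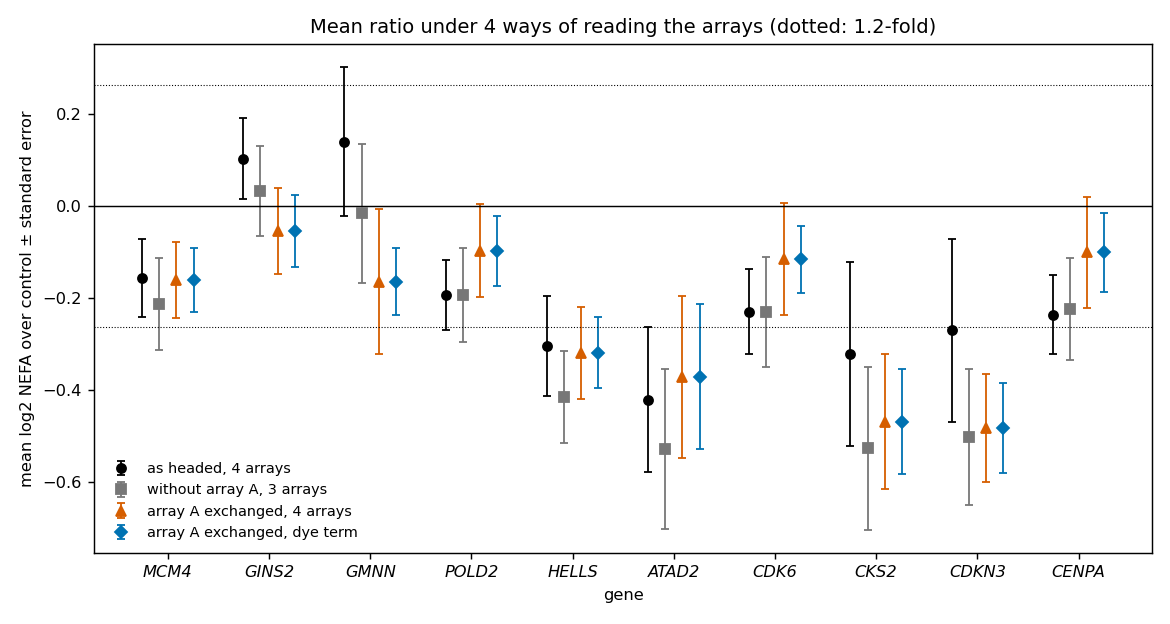
Mean log2 ratio (NEFA over control) and its standard error for each gene under 4 ways of reading the arrays, with dotted lines at 1.2-fold. HELLS stays between -0.41 and -0.30, CKS2 and CDKN3 lie lower without array A or with it exchanged than as headed, and GINS2 and GMNN change sign.

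For 5 of the genes other probes were present, 8 in all (MCM4 1, GINS2 2, HELLS 1, ATAD2 1 and CDKN3 3). None of these was above background in all 8 channels. Of the 8, 5 had a ratio below 0 as headed and 4 with array A exchanged, and none met the criterion under either reading. The second HELLS probe was above background in 0 of 8 channels and had -0.00076 as headed, -0.025 without array A and -0.036 with it exchanged. The second ATAD2 probe was also above in 0 of 8 and had -0.088, -0.024 and 0.052 in the same order. The brightest of the other CDKN3 probes, above in 5 of 8, had 0.0048, -0.040 and -0.065. The values given for HELLS, ATAD2 and CDKN3 therefore rest on 1 probe each. For GINS2, the probe above in 3 of 8 had 0.12, 0.16 and 0.12. The GINS2 probe above in 2 of 8 had -0.080, -0.078 and -0.037. The change of sign given for GINS2 is thus that of its brightest probe. The second MCM4 probe, above in 2 of 8, had -0.076, -0.046 and 0.0067. POLD2, GMNN, CDK6, CKS2 and CENPA had no other probe.

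**Figure D4:**
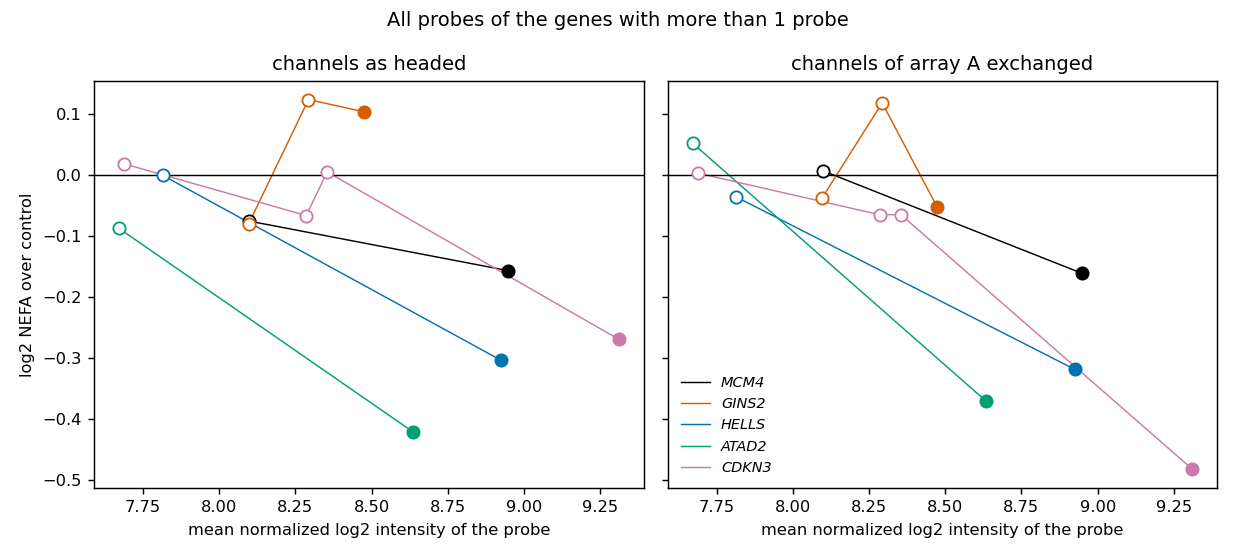
Mean log2 ratio of NEFA to control against the mean normalized log2 intensity for every probe of the 5 genes with more than 1 probe, as headed (left) and with array A exchanged (right), with the brightest probe filled. The dimmer probes of HELLS, ATAD2 and CDKN3 lie near 0.

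A list of 119 other genes of replication and the G1/S transition, also drawn up with earlier results known, had 72 measured genes, of which 18 were above background in all 8 channels. As headed, limma called 0 of the 72 lower and 0 higher, and 0 had an unadjusted p under 0.05. The lowest ratios were those of CDKN2C (-0.39), GINS1 (-0.38), ASF1B (-0.32) and the cyclin D1 gene CCND1 (-0.25). CCND1 had -0.21 without array A and -0.062 with it exchanged. The E2F family repressor gene E2F8, above background in 1 of 8 channels, had -0.21 as headed, -0.25 without array A and -0.17 exchanged. The median of the 72 was -0.042, beside -0.022 for all genes. Without array A, 7 were called lower (9.72%, beside 2.39% of all genes), namely GINS1, POLE2, RFC4, RPA2, ASF1A, ASF1B and CDKN2C, and 0 higher.

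With array A exchanged, 8 of the 72 were called lower in NEFA GCs (11.1%, beside 3.08% of all genes) and 0 higher (1.08% of all genes), and the median was -0.065, beside -0.010 for all genes. The largest differences were in the histone chaperone gene ASF1B (-0.93, standard error 0.18), the GINS subunit gene GINS1 (-0.59, standard error 0.13) and POLE2, which encodes a subunit of DNA polymerase epsilon (-0.58, standard error 0.084). The others were the CDK4 and CDK6 inhibitor gene CDKN2C (-0.56), the clamp loader subunit gene RFC4 (-0.49), the gene of the chaperone ASF1A (-0.41), FBXO5, which encodes an inhibitor of the anaphase-promoting complex (-0.41), and RPA2, a subunit of the single-strand binding protein RPA (-0.34). None had an adjusted p under 0.05, the smallest being 0.548 (POLE2, limma). With the dye term, 9 were called lower, with CKS1B as the addition, and 1 higher, the centromere protein gene CENPB (0.39), beside 3.71% and 3% of all genes, and the smallest adjusted p was 0.0198.

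On single arrays, the genes with the largest differences had array A on the other side of 0. POLE2 had 0.67 on array A, against -0.40, -0.66 and -0.57 on B, C and D. ASF1B had 1.22 on array A, against -0.93, -1.28 and -0.28. GINS1 had 0.41, -0.34, -1.03 and -0.57 on A to D, whereas its partner GINS2 had the small values given above. The median of the 7 measured licensing and helicase genes was 0.0099 as headed, 0.052 without array A and -0.062 exchanged, with 0, 1 and 1 called lower. MCM2 had 0.071, 0.052 and 0.0081, and MCM8, the gene of this list above background in all 8 channels, had 0.0073, -0.093 and -0.15.

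Of the 22 measured polymerase and fork genes, 0 were called lower as headed, 3 without array A and 3 with it exchanged (medians -0.0047, -0.047 and -0.027). Of 10 genes of replicated chromatin these numbers were 0, 2 and 2 (medians -0.058, -0.068 and -0.12), and of 24 cyclins, kinases, inhibitors and E2F factors 0, 1 and 2 (medians -0.062, -0.086 and -0.084). Of 6 centromere genes 0 were called lower in each (medians -0.018, -0.054 and -0.086), with 0, 0 and 1 at an unadjusted p under 0.05. The 3 nucleotide supply genes also had 0 calls and 0 with an unadjusted p under 0.05 in each (medians 0.051, 0.038 and 0.0091). RRM1, the large subunit of ribonucleotide reductase, had 0.058, 0.044 and 0.0091. CHAF1A, the large subunit of chromatin assembly factor 1, was on the other side of 0, with 0.30 as headed (standard error 0.23), 0.38 without array A and 0.26 exchanged (standard error 0.24), from 0.078, -0.48, 0.73 and 0.87 on arrays A to D. Its control level was 13.97 on array A and 10.17 on array D. After the exchange its red to green difference was 0.54, larger than these means. The 20 other genes with the smallest p of their lists were CDC6, CDT1, MCM9, GINS3, RFC5, LIG1, POLE3, RNASEH2C, TIPIN, DCK, UNG, ESCO2, CHAF1B, HAT1, CCND2, CCNA2, CENPT, CENPI, OIP5 and CENPK. Their ratios lay between -0.22 (RNASEH2C) and 0.19 (RFC5) as headed and between -0.25 (CCNA2) and 0.19 (DCK) with array A exchanged, and none met the criterion under the 4 readings.

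**Figure D5:**
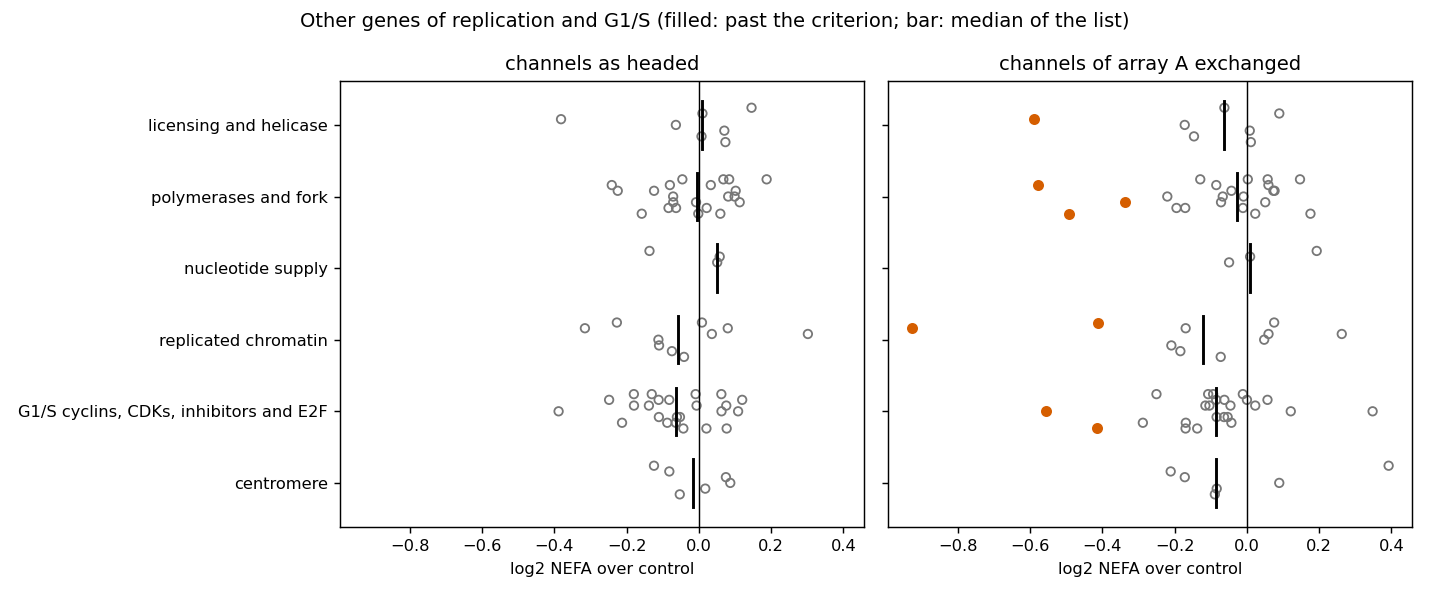
Mean log2 ratio of NEFA to control for the 72 other measured genes by list, as headed (left) and with array A exchanged (right), with the median of each list as a bar and genes past the criterion filled. As headed 0 genes are filled, and exchanged 8 are, all below 0.

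The mean profile of the 5 genes above background in all channels was 0.27, -0.29, -0.48 and -0.23 on arrays A to D as headed. Among 2553 other genes above background in all channels, the 5 nearest to it were ACOT6, OLA1, DNAJC10, APOO and BUB3, with root mean square differences over the 4 arrays of 0.034, 0.041, 0.049, 0.054 and 0.056. ACOT6 had 0.21, -0.28, -0.50 and -0.24, and BUB3, a gene of the spindle checkpoint, had 0.27, -0.28, -0.39 and -0.30. With 4 arrays such a match is a description of these arrays.

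Of 16 granulosa markers 6 were measured. AMH, the anti-Müllerian hormone gene, was above background in all 8 channels. NR5A1 and NR5A2 were each above in 2 NEFA and 4 control channels, and AMHR2 in 2 and 3. LHCGR and INHBA were above in none, and FSHR, FOXL2, CYP19A1, CYP11A1 and STAR had no named probe. The stromal markers ACTA2 and TAGLN, which cultured GCs are also known to express, were at 15.2 each. Of 9 measured oocyte markers GDF9 and FIGLA were above in all channels and 6 in none, and of 2 theca markers 0 were above in any. No marker of the 3 immune, 2 endothelial and 1 red blood cell genes measured was above in all 8. Among them CSF1R was above in 2 NEFA and 2 control channels, PTPRC and TEK in 1 of each, and VWF in 1 NEFA channel. The stromal markers CNN1 and PDGFRA were at 8.62 and 8.60. The median level over the 4 measured stromal markers, 11.8 to 12.1 across arrays in either group, therefore lies between bright and dim probes and describes none of them. The median over the 6 measured granulosa markers was 8.14 to 8.38 across arrays in NEFA GCs and 8.36 to 8.48 in control GCs. The stromal marker CNN1 had -0.0015 as headed and 0.34 with array A exchanged, where it met the criterion as higher, and no other marker did so under either reading. The part of cell composition in the values of the 10 genes was not tested.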

How the data were processed

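RNA of 4 NEFA and 4 control GC samples was compared on 4 two-colour EmbryoGENE porcine arrays. After amplification and labelling, the authors scanned the slide and used Array-Pro to extract the features. The deposited intensity values are the mean raw intensity and mean local background of each spot and dye, without normalization. A deposited table of ratios was not used, because its values did not follow those of the spots with the same numbers.

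Of 45220 spots, 43794 expression probes were analysed, and ignored spots (60 to 121 per array) were set to missing. Background correction (normexp, offset 50, in place of the subtraction named in the methods), loess within arrays, quantile between arrays and the fit of the signed log2 ratio were run with limma 3.58.1 in R 4.3.3, with p two-sided and adjusted by Benjamini-Hochberg over all probes. The array is the pair of NEFA and control RNA. The fit, and not the normalization, was tested on simulated ratios. Their noise was independent between arrays and held no dye difference, so this check does not cover dye differences.

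Probes were named by spot number from the platform annotation (1 gene for 13146 probes, none for 30648, with 165 symbols updated). Ribosomal protein probes were bright under this numbering (median log2 14.1, against 8.04 for all probes). The ratios of different probes of a gene matched weakly. Between the first 2 probes of 2144 genes, r was 0.19, 0.18, 0.073 and 0.037 on arrays A to D. The members and lists were chosen with earlier results of these data known, and the exchange of array A was also known then. Named were all 10 members, from each list the 4 genes with the smallest p as headed and exchanged, and the 5 genes nearest in profile. Called genes beyond these were named after their values were seen. Alternatives covered background, normalization, a filter on dim probes, a dye term, the block, the variance prior, probes of a gene, left-out replicates and array A. The array build is not given in the sources used here, so no coordinates are printed, and promoter motifs and sequences were not analysed here.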

Additional observations from a re-analysis of the deposited data

Results flagged for a closer look

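Within each group of 4 arrays, the NEFA levels, the control levels and the ratios of the 10 genes were examined for a value far from the other 3, which made 30 quantities, and chance flags about 1 in 20. The GINS2 ratio of NEFA to control on array A was 0.31, against 0.011 to 0.062 on arrays B, C and D. The CDK6 level in control GCs on array D was 8.89, against 8.56 to 8.57 on arrays A, B and C.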

How the results depend on the processing

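As headed, 2 of the 10 genes were called lower, and 52 of all genes lower and 28 higher. No background correction gave 0 of the 10 (all genes 17 and 2), and detected probes only gave 0 of 5 (6 and 2, with fewer genes tested). The dye term gave 1 (HELLS, all genes 68 and 41), and averaging the probes of each gene gave 0 (46 and 35). With no normalization between arrays HELLS and ATAD2 were called (33 and 34). The trend with a robust prior also called them (77 and 52). With no replicate block, which ignores that 2 RNAs shared an array, 0 of the 10 were called (28 and 16 of all genes), and the ratios themselves are the same by construction. Background subtraction (all genes 41 and 36) and a median in place of loess (55 and 36) kept HELLS and ATAD2. Exchanging array A gave 307 and 108 genes and 8 other replication genes lower, and with the dye term 370 and 299, with 4 of the 10 lower and 9 others lower and 1 higher. Elsewhere the cause of a moved count was not tested.

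Leaving out 1 replicate as headed gave 14 to 741 genes lower, 13 to 727 higher, 0 to 4 of the 10 lower, 0 to 1 higher, 0 to 7 others lower and 0 to 3 higher, and the median of the 10 was -0.27 to -0.14. Without replicate 2, GMNN was called higher and CDK6 and CENPA lower, and without replicate 3 none was called. The 741 and 727 genes also came from the fit without replicate 2, where NEFA and dye may not be separable, as described above. With array A exchanged, leaving out replicates 2, 3 and 4 gave 299, 338 and 375 genes lower and 73, 336 and 142 higher, 7 to 10 others lower and 0 to 2 higher, and CKS2 and CDKN3 alone of the 10 were called lower each time. GMNN changed sign without background correction and without replicate 1, and GINS2 and GMNN did so in all fits with array A exchanged. Promoter motifs were not run. Dim probes limit CENPA most.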
